A study of Mus musculus with 4 samples.

Results

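The genes described here encode carriers of urate, organic anions and organic cations: Slc17a1, Slc17a2, Slc17a3, Slc17a4, Slc2a9, Slc22a12, Slc16a9, Slc47a1, Slco4c1 and Slco1a6. These 10 genes were taken by symbol from the 22662 named genes that could be joined across 4 libraries. Each symbol had a single row in every table. RNA came from kidneys of mouse embryos of mixed strain at E18.5, shortly before birth, with no sorting of cells in the sources. The mutant group (2 libraries) was Hnf4a c/c ; Six2GFPcre, with both copies of Hnf4a floxed, and the control group (2 libraries) was Hnf4a c/+ ; Six2GFPcre, with a single floxed copy. Every embryo therefore carried Six2GFPcre, which drives Cre in nephron progenitors and their descendants, and the controls could also lose a copy of Hnf4a in those cells, so they do not stand for intact kidneys. The labels name no animals or litters and do not say whether kidneys were pooled, so the spread between libraries may be in part technical. In such tissue, fewer proximal tubule cells and less RNA per cell cannot be told apart.

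Hnf4a is a nuclear receptor of the proximal tubule, the segment that reclaims solutes from the filtrate and secretes drugs and waste anions into it. Urate crosses this epithelium in both directions. In human and mouse kidney, apical Slc22a12 (URAT1) takes it up from the filtrate. In human kidney, basolateral Slc2a9 (GLUT9) passes it on to the blood. Slc17 carriers of the apical membrane are known, mainly from human studies, for moving it outwards. Organic cations leave the cell through the proton antiporter Slc47a1 (MATE1), and organic anion transporting polypeptides (OATPs, encoded by Slco genes) carry bulky anions such as steroid conjugates.

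The level of Hnf4a was 87.1 and 78.5 FPKM in mutant libraries, against 89.3 and 84.6 FPKM in control libraries. FPKM is the number of fragments scaled for transcript length and for the mapped fragments of the library. The sources used here do not give the deleted part of Hnf4a, and a level over all its exons does not check the genotypes. The libraries held from 13552 to 13646 named genes at 1 FPKM or more. Replicate 1 of each group had the Y-linked Ddx3y at 26.4 FPKM (mutant) and 27.7 FPKM (control) with Xist at 0.131 and 0.0789 FPKM, and replicate 2 had Xist at 74.0 FPKM (mutant) and 81.0 FPKM (control).

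As a group, these carriers were lower in mutant kidneys in mean level, with a single exception. The mutant mean was below the control mean for 9 of the 10 genes, and for the same 9 both mutant libraries were below both control libraries. Of all genes tested below, 44.7% had a negative log2 change, and in 17.1% both mutant libraries were below both control libraries. The 9 include Slc17a2, near the limit of detection, and Slc2a9, whose groups were apart by a narrow margin. Slc17a3 stood at 32.8% of the control mean, Slc17a1 at 42.0%, Slc22a12 at 47.0%, Slco1a6 at 57.7% and Slc47a1 at 62.0%, whereas Slc16a9 and Slc2a9 were at 76.4% and 75.8%. Slco4c1 was the exception, with a mutant mean at 129% of the control mean and overlapping libraries. None of the members passed the test across all genes, so none is said here to have risen or fallen.

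**Figure D1:**
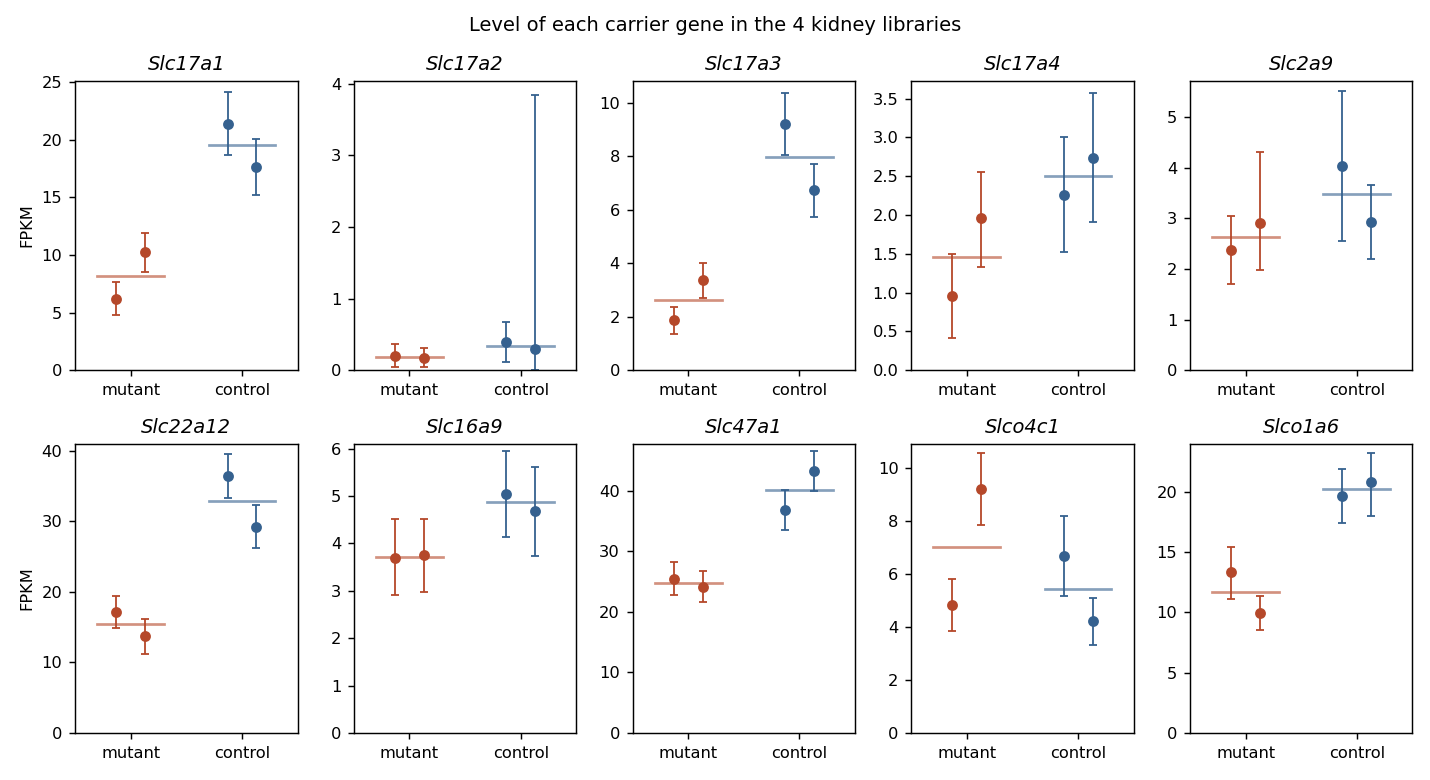
FPKM (vertical axis, linear from 0, its own scale for each gene) of the 10 carrier genes in the 2 mutant libraries (left of each panel) and the 2 control libraries (right), replicate 1 before replicate 2. Bars are the interval deposited with each value and horizontal lines are group means; the groups are apart in 9 genes and overlap in Slco4c1.

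Genes with at least 1 FPKM in at least 2 libraries were tested with limma on log2(FPKM + 1), and p-values were adjusted over all 13287 tested genes by the Benjamini-Hochberg method. Log2 changes are mutant minus control on that scale, where differences of genes near or under 1 FPKM are compressed. Of the members, 9 were tested and Slc17a2 was under the filter. With limma at an adjusted p under 0.05, 0 of the 9 passed in either direction, against 0.113% of all tested genes lower and 0.0452% higher in mutant kidneys (15 and 6 genes). At an unadjusted p under 0.05, 5 of 9 members were lower (Slc17a1, Slc17a3, Slc22a12, Slc47a1 and Slco1a6), against 4.57% of all tested genes. The libraries did not overlap, with the mutant ones lower, in 8 of 9 tested members and in 17.1% of all tested genes. The median log2 change was -0.66 over the 9 members and 0.02 over all tested genes.

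Each deposited FPKM comes with an interval for the estimate within its own library. In 5 of 9 tested members the highest upper bound among mutant libraries was below the lowest lower bound among control libraries, which was so in 2.36% of all tested genes. These were again Slc17a1, Slc17a3, Slc22a12, Slc47a1 and Slco1a6. For Slc22a12, for example, the mutant upper bounds ended at 19.4 FPKM and the control lower bounds began at 26.2 FPKM. The intervals do not cover variation between animals, and they were not all made alike: those of control replicate 1 were symmetric about the FPKM to within 1% of it in 100% of rows with a lower bound above 0, against 52.6% to 54.6% in the other libraries.

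**Figure D2:**
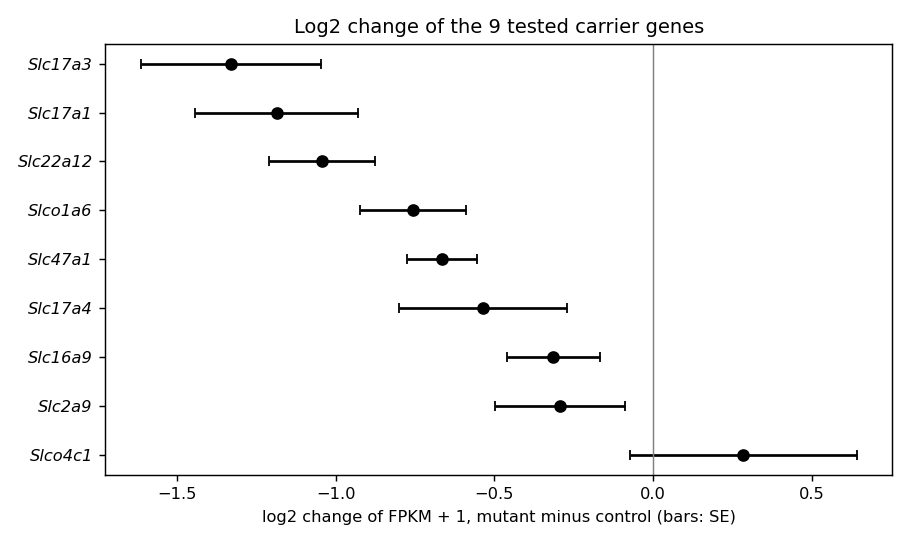
Log2 change of FPKM + 1 (horizontal axis, mutant minus control) for the 9 tested carrier genes, with bars for the SE. Slc17a3 has the lowest estimate at -1.33 and Slco4c1 the highest at 0.28.

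The Slc17 genes lie side by side on mouse chromosome 13 and encode phosphate-coupled organic anion carriers. In build mm9, with positions as deposited, Slc17a2 spans 23898895 to 23915394, Slc17a3 spans 23931302 to 23952583, Slc17a1 spans 23962141 to 23987599 and Slc17a4 starts at 23989757 and ends at 24006876. Their levels differed widely. In the control libraries the means were 19.5 FPKM for Slc17a1, 7.97 FPKM for Slc17a3, 2.502 FPKM for Slc17a4 and 0.341 FPKM for Slc17a2, and no control library of any of these genes overlapped that of the next in this order.

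Slc17a1 (NPT1), an apical carrier linked to urate excretion in human genetics, was at 6.19 and 10.2 FPKM in mutant libraries, against 21.4 and 17.7 FPKM in control libraries. Both mutant libraries lay below both control libraries. It averaged 8.21 ± 2.86 FPKM in mutant and 19.5 ± 2.65 FPKM in control kidneys (SD, n = 2 each), a log2 change of -1.19 (SE 0.26, limma adjusted p = 0.343).

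Slc17a3 (NPT4), which carries urate and drugs out of the cell in human studies, was at 1.86 and 3.36 FPKM in mutant libraries, against 9.21 and 6.72 FPKM in control libraries. The groups did not overlap. The means were 2.61 ± 1.06 FPKM in mutant and 7.97 ± 1.76 FPKM in control kidneys (SD, n = 2 each), with a log2 change of -1.33 (SE 0.28, limma adjusted p = 0.329), the lowest estimate among the members.

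Slc17a4, known in human for the transport of organic anions in the gut, was at 0.958 and 1.96 FPKM in mutant libraries, against 2.26 and 2.74 FPKM in control libraries. Mutant replicate 2 and control replicate 1 were close, and their deposited intervals overlapped. The log2 change was -0.54 (SE 0.27, limma adjusted p = 0.764). Slc17a2 (NPT3) was near the limit of detection at 0.197 and 0.170 FPKM in mutant libraries, against 0.392 and 0.289 FPKM in control libraries. Its interval in control replicate 2 ran from 0 to 3.85 FPKM and so covered every other value of the gene.

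Within the mutant group, Slc17a1, Slc17a3 and Slc17a4 were each lower in replicate 1, at 60.5%, 55.3% and 48.8% of replicate 2. Slc17 genes are also expressed in liver, and mutant replicate 2 had the highest level of 6 of the 7 liver markers. The summed level of all 7 was 40.0 and 96.8 FPKM in mutant libraries, against 42.5 and 52.6 FPKM in control libraries. The plasma protein genes Alb (1.11 and 21.1 FPKM in mutant, 0.295 and 1.09 FPKM in control libraries) and Ahsg (0.753 and 12.5 FPKM in mutant, 0.209 and 0.737 FPKM in control libraries) had by far their highest values in that library. The exception was Ttr, a thyroid hormone carrier protein, at 5.51 and 9.75 FPKM in mutant and 14.7 and 10.9 FPKM in control libraries, where both mutant values were the lower ones. The part of the liver markers in the levels of the Slc17 genes was not tested. Mutant replicate 1 expressed Ddx3y and mutant replicate 2 Xist, so these libraries also differ in sex. That part was not tested either. Without mutant replicate 2 the log2 changes of Slc17a1, Slc17a3 and Slc17a4 were -1.51, -1.63 and -0.84, and without mutant replicate 1 they were -0.86, -1.03 and -0.24.

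**Figure D3:**
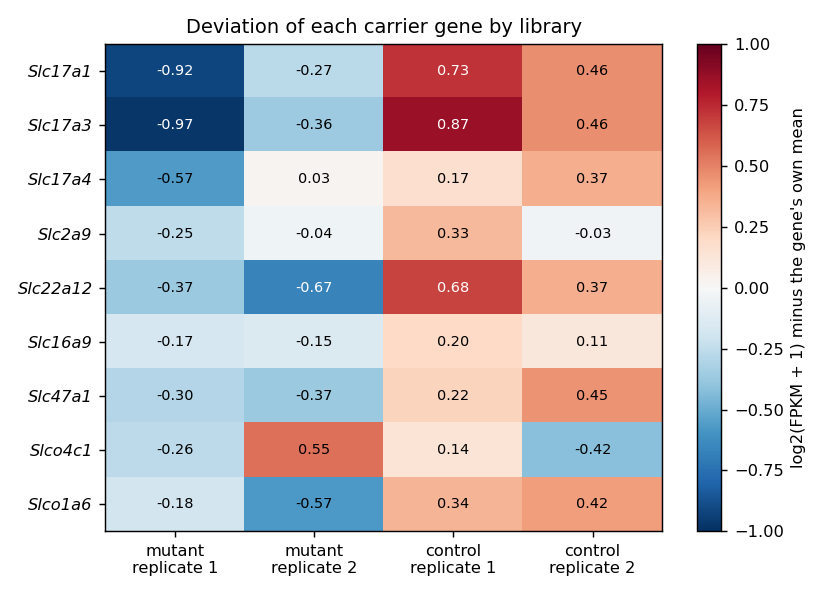
Log2(FPKM + 1) minus the mean of the gene over the 4 libraries (colour and printed number) for the 9 tested carrier genes (rows) in mutant and then control libraries (columns). Slc17a1 and Slc17a3 run in parallel, with their lowest values of -0.92 and -0.97 in mutant replicate 1, whereas Slco4c1 has its highest value of 0.55 in mutant replicate 2.

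Across the libraries Slc17a1 and Slc17a3 were the most alike pair among the members. The Euclidean distance between their profiles, each centred on its own mean over the 4 libraries on the log2(FPKM + 1) scale, was 0.18, and the next pair, Slc2a9 and Slc16a9, was at 0.24. Because these genes lie next to each other and their values ran in parallel, their promoters are shown, together with that of Slco1a6, the member with a match to letters typical of HNF4 sites. The sequences are from RefSeq on build GRCm38.p6, 300 bases each, from 250 bases before to 50 after the annotated start, 5′ to 3′ on the gene's strand. Capitals mark matches to the letters searched. Slc17a1 has an upstream and a downstream start site, and the downstream one, which holds a match, is given. The promoter of the upstream one held no match to any of the letters searched.
Slc17a1, chr13:23870023-23870322, plus strand: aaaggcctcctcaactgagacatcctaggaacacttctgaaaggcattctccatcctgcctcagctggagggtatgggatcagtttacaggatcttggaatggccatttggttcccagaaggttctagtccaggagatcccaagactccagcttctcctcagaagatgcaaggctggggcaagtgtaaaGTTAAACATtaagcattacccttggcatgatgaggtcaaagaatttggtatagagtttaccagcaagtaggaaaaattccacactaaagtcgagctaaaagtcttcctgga
Slc17a3, chr13:23839184-23839483, plus strand: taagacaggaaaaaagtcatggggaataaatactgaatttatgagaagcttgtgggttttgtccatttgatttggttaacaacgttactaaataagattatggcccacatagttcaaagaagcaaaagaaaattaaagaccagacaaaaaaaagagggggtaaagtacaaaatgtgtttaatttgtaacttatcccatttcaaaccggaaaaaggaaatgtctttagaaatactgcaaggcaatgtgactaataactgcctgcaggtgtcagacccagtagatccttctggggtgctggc
Slco1a6, chr6:142186100-142186399, minus strand: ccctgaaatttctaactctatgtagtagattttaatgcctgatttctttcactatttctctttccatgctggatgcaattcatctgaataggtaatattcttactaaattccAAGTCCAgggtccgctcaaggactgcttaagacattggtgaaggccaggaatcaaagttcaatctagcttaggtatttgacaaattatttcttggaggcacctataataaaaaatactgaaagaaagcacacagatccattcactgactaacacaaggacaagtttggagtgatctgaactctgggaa

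The letters CAAAGTCCA and their core AAGTCCA, of the HNF4 type of site, and GTTAATNAT, of the HNF1 type, were searched on both strands in the 9 promoters that RefSeq held for 8 of the members. The first occurred in 0 of the 9, against 0.475% of 32851 mouse promoters of the same length. The core, which the longer form contains, occurred in 1 of the 9, that of Slco1a6, against 4.17% of all promoters. GTTAATNAT occurred in 0 of the 9, against 0.801% of all. A looser form that includes it, GTTAANNAT, was chosen after the promoters were read. It occurred in 2 of the 9, the downstream promoter of Slc17a1 and that of Slc17a2, against 2.43% of all. The Slc17a1 match ran from 61 to 53 bases before the start site and the Slc17a2 match from 83 to 75 bases before it. These are matches of letters in a short window, and no binding was measured.

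Slc22a12 (URAT1; mm9 chromosome 19, 6535855 to 6543070), the apical exchanger that takes up urate, was among the more abundant members. It was at 17.1 and 13.7 FPKM in mutant libraries, against 36.4 and 29.2 FPKM in control libraries. Every mutant library was below every control library. The means were 15.4 ± 2.38 FPKM in mutant and 32.8 ± 5.10 FPKM in control kidneys (SD, n = 2 each), a log2 change of -1.04 (SE 0.17, limma adjusted p = 0.196), the lowest adjusted p among the members. Unlike Slc17a1, Slc17a3 and Slc17a4, Slc22a12 was lower in replicate 2 of the mutant group, the library with the highest summed liver markers, and its log2 change was -0.89 without that library. Nrxn2, a synaptic adhesion gene whose locus lies 2638 bases from Slc22a12 in these tables, was at 5.39 and 8.39 FPKM in mutant and 8.80 and 13.5 FPKM in control libraries. In the GENCODE M21 annotation 27.4% of the 50-base words of Slc22a12 transcripts also occur in Nrxn2 transcripts from the opposite strand. The sources do not describe the libraries as stranded, so reads from this stretch cannot be assigned with certainty.

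Slc2a9 (GLUT9; mm9 chromosome 5, from 38740511), which lets urate out on the blood side in human kidney, differed less. Its level was 2.38 and 2.90 FPKM in mutant libraries, against 4.04 and 2.92 FPKM in control libraries. Mutant replicate 2 and control replicate 2 were nearly equal, so the separation rests on narrow margins. The log2 change was -0.29 (SE 0.21, limma adjusted p = 0.764), and it was -0.11 without control replicate 1.

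Slc16a9 (MCT9; mm9 chromosome 10, 69708023 to 69748699), a monocarboxylate carrier family member tied to urate and carnitine levels by human genetics, was at 3.69 and 3.75 FPKM in mutant libraries, against 5.05 and 4.69 FPKM in control libraries. The libraries of each group were close together and the groups did not overlap. The log2 change was -0.31 (SE 0.15, limma adjusted p = 0.763), and the deposited intervals of the groups overlapped. Slc16a9 shares 18.98% of its 50-base words with other GENCODE M21 genes, Gm7097 and Gm9877 on the opposite strand.

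Slc47a1 (MATE1; mm9 chromosome 11, from 61156901), which secretes organic cations such as metformin into the filtrate in exchange for protons, had the highest level of the members. It was at 25.5 and 24.2 FPKM in mutant libraries, against 36.9 and 43.3 FPKM in control libraries. The groups were well apart, with means of 24.8 ± 0.943 FPKM in mutant and 40.1 ± 4.54 FPKM in control kidneys (SD, n = 2 each). The log2 change was -0.66 (SE 0.11, limma adjusted p = 0.202). Slc47a2, its paralog 539 bases away, was at 0.126 and 0.108 FPKM in mutant and 0.0625 and 0.185 FPKM in control libraries, under the filter. The other organic cation carriers that passed the filter were lower as well in mean level. Slc22a2 (OCT2), a basolateral uptake carrier, was at 9.17 and 7.86 FPKM in mutant and 25.4 and 17.4 FPKM in control libraries (log2 change -1.22, SE 0.22, limma adjusted p = 0.235). Slc29a4, a monoamine carrier, was at 2.74 and 2.46 FPKM in mutant and 3.62 and 2.79 FPKM in control libraries. Of 3 tested organic cation carriers outside the members, 0 passed an adjusted p under 0.05 with limma, and their median log2 change was -1.22. At an unadjusted p under 0.05, 2 of the 3 were lower, against 4.57% of all tested genes.

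Slco1a6 (mm9 chromosome 6, 142034288 to 142134670), an OATP of the mouse Slco1a cluster found in kidney, was at 13.4 and 9.97 FPKM in mutant libraries, against 19.6 and 20.8 FPKM in control libraries. All values in mutant libraries were below those in control libraries. It averaged 11.7 ± 2.40 FPKM in mutant and 20.2 ± 0.811 FPKM in control kidneys (SD, n = 2 each), a log2 change of -0.76 (SE 0.17, limma adjusted p = 0.348). It shares 6.59% of its 50-base words with other genes, Gm6614 first among them, so a small part of its reads could belong to near copies. Slco1a5, next in the cluster, was at 0.145 FPKM or less in every library.

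Slco4c1 (mm9 chromosome 1), a basolateral OATP that takes up cardiac glycosides and uraemic toxins in human and rat kidney, did not share the pattern of the other members. It was at 4.82 and 9.20 FPKM in mutant libraries, against 6.68 and 4.21 FPKM in control libraries. The highest and the next to lowest value both came from mutant libraries. The means were 7.01 ± 3.10 FPKM in mutant and 5.45 ± 1.74 FPKM in control kidneys (SD, n = 2 each), and the log2 change was 0.28 (SE 0.36, limma adjusted p = 0.838). Without mutant replicate 2 the log2 change was -0.12.

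The boundary of Slco4c1 also differed between tables. Its locus started at 98714368 in mutant replicate 1 and at 98713092 in mutant replicate 2, against 98714587 and 98714348 in control replicates 1 and 2, and it ended at 98768748 in all. The gene is on the minus strand, so the extra stretch in mutant replicate 2 lies beyond its 3′ end. In the other libraries that stretch was assembled as a separate locus without a name, at 6.01 FPKM in mutant replicate 1 and at 5.86 and 5.94 FPKM in control replicates 1 and 2, and mutant replicate 2 had no such locus. The part of this difference in gene model in the level of Slco4c1 was not tested. Smaller shifts of a boundary were present for Slc17a4, Slc2a9 and Slc47a1, and the other 6 members had the same boundaries in every table.

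In the control libraries the members ranked from Slc47a1 over Slc22a12, Slco1a6, Slc17a1, Slc17a3, Slco4c1, Slc16a9, Slc2a9 and Slc17a4 to Slc17a2 by mean FPKM. Among neighbours in this order, Slco1a6 and Slc17a1 overlapped, as did Slco4c1 and Slc16a9. In the mutant libraries Slco4c1, Slc16a9 and Slc2a9 all had higher means than Slc17a3, although the libraries of Slc2a9 and Slc17a3 overlapped.

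By the same measure of likeness, the gene outside the members closest to Slc17a1 among 10997 genes with a mean of at least 5 FPKM was Acmsd (distance 0.06), and that closest to Slc17a3 was Pklr (0.05). For Slc22a12 it was Serpina10 (0.15), for Slc47a1 Tpcn1 (0.06), for Slco1a6 4931406C07Rik (0.14), for Slc2a9 Chst8 (0.01), for Slc17a4 LOC100504703 (0.10) and for Slco4c1 Eddm3b (0.08). With 4 libraries many genes can be as close, and these distances are a description.

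Other genes linked to urate transport were also lower in mean level. Of 7 tested genes of this kind outside the members (carriers and a scaffold, not all of them carriers of urate itself), 0 passed an adjusted p under 0.05 with limma. At an unadjusted p under 0.05, 5 of the 7 were lower, against 4.57% of all tested genes. All 7 had negative changes, against 44.7% of all tested genes. In all 7 the mutant libraries were lower without overlap, against 17.1% of all tested genes. Their median log2 change was -0.76. Slc5a12, 1 of the 7, is also among the proximal tubule markers below. Pdzk1, the scaffold protein that binds apical carriers including Slc22a12, was at 68.6 and 68.4 FPKM in mutant libraries, against 137 and 126 FPKM in control libraries (log2 change -0.93, SE 0.07, limma adjusted p = 0.0574). Abcg2, an export pump for urate, was at 31.3 and 32.3 FPKM in mutant and 46.8 and 44.2 FPKM in control libraries (log2 change -0.50, SE 0.08, limma adjusted p = 0.185). Slc22a6 (OAT1), an uptake carrier for organic anions on the blood side, was at 12.6 and 10.5 FPKM in mutant and 47.3 and 27.2 FPKM in control libraries. Slc5a8, a sodium-coupled carrier of lactate and other monocarboxylates, was at 12.1 and 11.1 FPKM in mutant and 21.2 and 19.5 FPKM in control libraries.

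Enzymes of purine breakdown and salvage did not share this pattern. Of 7 tested, 0 passed an adjusted p under 0.05 with limma, and the median log2 change was 0.05. At an unadjusted p under 0.05, 1 of the 7 was lower, against 4.57% of all tested genes. This was Nt5e, an ecto-enzyme that makes adenosine, at 61.3% of the control mean. The most abundant were Aprt (196 and 113 FPKM in mutant, 130 and 136 FPKM in control libraries), Nt5c (62.5 and 63.3 FPKM in mutant, 56.1 and 65.9 FPKM in control libraries), Hprt (58.7 and 62.3 FPKM in mutant, 47.5 and 66.4 FPKM in control libraries) and Adk (40.3 and 60.0 FPKM in mutant, 56.2 and 59.6 FPKM in control libraries). The groups overlapped in each of these. Xdh, which makes urate, was near the filter at 1.21 and 1.28 FPKM in mutant and 0.769 and 1.15 FPKM in control libraries.

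Relatives of the members in the same gene families had smaller median changes than the 9 tested members together (-0.66). The members Slc16a9 (-0.31) and Slc2a9 (-0.29) also had smaller changes than that median. Of all tested genes, 4.57% were lower at an unadjusted p under 0.05. Of 5 other tested OATP genes, 1 was lower at an unadjusted p under 0.05 (Slco2a1, a prostaglandin carrier, at 5.13 and 4.58 FPKM in mutant and 9.10 and 7.05 FPKM in control libraries), and their median log2 change was -0.04. Slco3a1 was at 17.0 and 18.3 FPKM in mutant and 17.1 and 15.1 FPKM in control libraries, and Slco4a1 at 4.57 and 6.26 FPKM in mutant and 3.65 and 3.50 FPKM in control libraries. Slco2b1 was at 3.45 and 4.62 FPKM in mutant and 4.47 and 3.83 FPKM in control libraries. Slco1a4 was at 0.429 and 2.40 FPKM in mutant and 3.02 and 1.97 FPKM in control libraries, with overlapping groups (log2 change -0.65, SE 0.47). Of 12 other tested Slc16 genes, 2 were lower at an unadjusted p under 0.05, with a median of -0.18 over the 12. These were Slc16a11 (log2 change -0.87) and Slc16a13 (-0.39). The most abundant, Slc16a3, a lactate exporter, was at 56.1 and 45.0 FPKM in mutant and 52.4 and 64.2 FPKM in control libraries. Slc16a12, a creatine carrier, was at 25.4 and 18.9 FPKM in mutant and 37.6 and 18.52 FPKM in control libraries. Slc16a1 was at 15.7 FPKM in both mutant and 14.6 and 18.0 FPKM in control libraries, and Slc16a5 at 10.97 and 18.7 FPKM in mutant and 12.6 and 13.6 FPKM in control libraries. The groups overlapped in all 4 of these most abundant Slc16 genes. Of 9 other tested Slc2 genes, 1 was lower at an unadjusted p under 0.05, with a median of -0.17. That gene, Slc2a2 (GLUT2), the basolateral glucose carrier of the proximal tubule, was at 13.95 and 16.6 FPKM in mutant and 24.2 and 25.8 FPKM in control libraries, whereas the widely expressed Slc2a1 was at 78.9 and 74.4 FPKM in mutant and 80.8 and 91.8 FPKM in control libraries. Slc2a8 was at 22.0 and 23.9 FPKM in mutant and 23.6 and 26.4 FPKM in control libraries, and Slc2a4, the insulin-regulated glucose carrier, at 12.5 and 11.7 FPKM in mutant and 12.0 and 11.2 FPKM in control libraries. Both other tested Slc17 genes, Slc17a5 (14.3 and 16.1 FPKM in mutant, 25.3 and 14.5 FPKM in control libraries) and Slc17a8 (2.35 and 1.25 FPKM in mutant, 1.44 and 2.89 FPKM in control libraries), had overlapping groups. With limma, 0 genes of these families passed an adjusted p under 0.05.

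**Figure D4:**
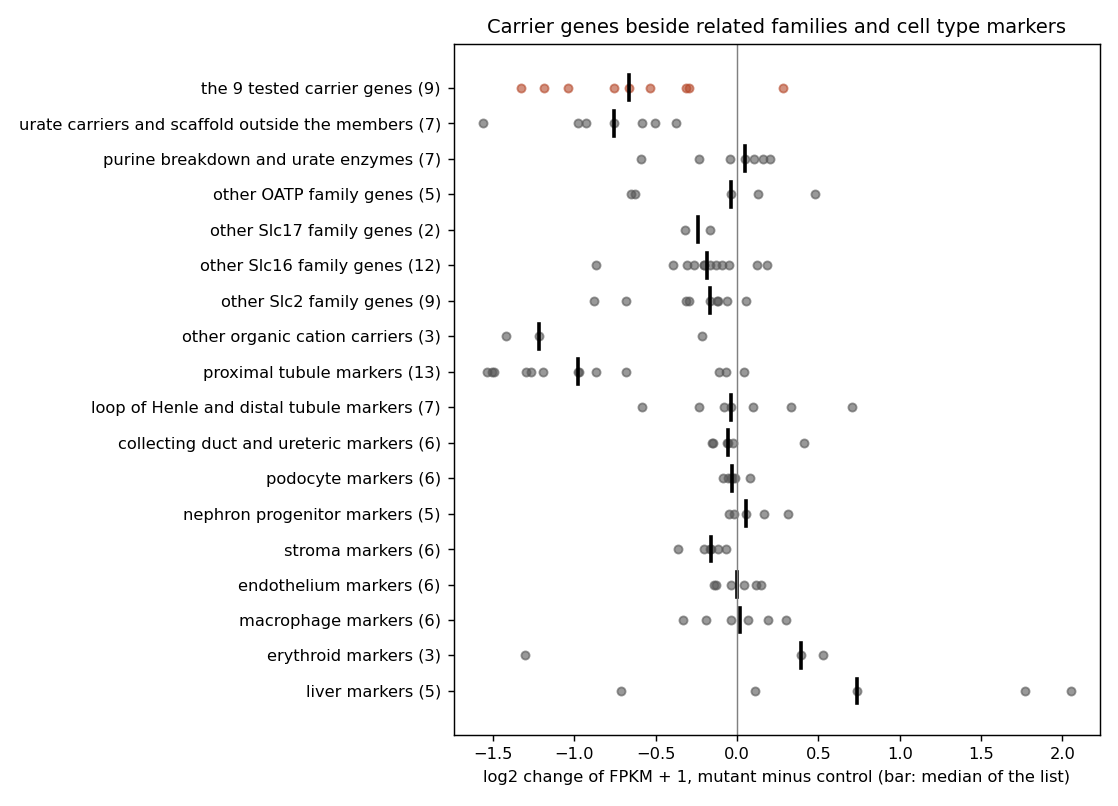
Log2 change of FPKM + 1 (horizontal axis, mutant minus control) of each tested gene, by list (rows, with the number of tested genes in parentheses); short vertical bars are list medians. The carrier genes have a median of -0.66 and proximal tubule markers -0.98, whereas the medians of podocyte (-0.03), collecting duct (-0.06) and endothelium (0.00) markers lie near 0, that of stroma markers is -0.16, and those of erythroid (0.39) and liver (0.74) markers are above 0.

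Along with the carriers, 12 of 13 proximal tubule markers had negative log2 changes, against 44.7% of all tested genes. The 12 include Hnf4a itself, at 95.2% of the control mean with overlapping groups. The 13 include Slc5a12, also counted above among the genes linked to urate transport. Of the 13, 10 were lower at an unadjusted p under 0.05, against 4.57% of all tested genes. With limma, 0 of the 13 passed an adjusted p under 0.05. Their summed level was 390 and 388 FPKM in mutant libraries, against 717 and 614 FPKM in control libraries. Lrp2 (megalin) was at 33.8% and Slc34a1, the sodium-phosphate cotransporter, at 39.9% of the control mean. Cdh6 and Jag1, which also mark early tubule cells, were at 92.3% and 103%. Of the 13, 0 were at 0 in all libraries. The part of these markers in the levels of the carriers was not tested. Of 7 loop and distal tubule markers, 0 were lower at an unadjusted p under 0.05 and 1 was higher (Kcnj1). Of all 13287 tested genes, 355 were higher at that threshold. Changes were negative in 4 of the 7. Their summed levels were 370 and 345 FPKM in mutant and 313 and 329 FPKM in control libraries. Calb1 alone was at 117 and 67.1 FPKM in mutant and 48.9 and 59.5 FPKM in control libraries (log2 change 0.70, the highest of the 7). Markers of collecting duct (6 tested), podocytes (6), nephron progenitors (5), stroma (6), endothelium (6) and macrophages (6) included 0 genes at an unadjusted p under 0.05 in either direction, as did the 5 tested liver markers. All 6 stroma markers had negative changes (median -0.16), against 44.7% of all tested genes. The 5 tested liver markers had a median of 0.74. Among them, Alb was at 21.1 FPKM in mutant replicate 2, and at 1.11 FPKM in mutant replicate 1 against 1.09 FPKM in control replicate 2. Of 3 erythroid markers, 1 was higher and 1 lower at that threshold (median 0.39), and the adrenal markers were all under the filter, with summed levels from 0.661 to 1.33 FPKM. With limma, 0 markers of any of these lists passed an adjusted p under 0.05.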

How the data were processed

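Poly(A) RNA of embryonic kidneys was sequenced in 4 libraries, and the authors deposited 1 table per library with an FPKM value and interval per gene row, per the file headers. Per the submitters' processing notes, the build was mm9 and the tools were Cufflinks 2.1.1, TopHat2 2.0.11, SAMtools 0.1.19 and Bowtie 1.0.0; which annotation and settings they ran with is not stated. Locus boundaries differ between tables. The tables hold no read totals, so depth is unknown; among genes under 0.1 FPKM the most frequent log2 ratio of mutant replicate 2 to a control library was -0.20 and -0.18.

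Rows were joined by symbol (22761 names in all 4 tables, 99 with a row not marked OK left out), and FPKM was summed over rows of a symbol. Genes at 1 FPKM or more in at least 2 libraries were tested with limma 3.58.1 in R 4.3.3 on log2(FPKM + 1), with a mean-variance trend and group as the single term. The fit was tested on simulated data. Alternatives changed the pseudocount, filter, scaling, trend, rows per symbol, replicate block and library left out. The rule for names was all members, the gene most alike to each and named neighbours within 50 kb. From each related list it took the 4 tested genes with the highest mean level. Marker genes, Nt5e, Xdh, Slc16a11, Slc16a13, Slco1a4 and the neighbours singled out were chosen after their values were seen. A few of the genes named by the rule are left out of the text. Members and lists were chosen with earlier results of these data known.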

Additional observations from a re-analysis of the deposited data

Results flagged for a closer look

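Loci without a gene name were left out of the comparisons, and 3 of those within 50 kb of a member had over 1.5 times the FPKM in a mutant library of any overlapping unnamed locus in the control libraries. Inside the Slc2a9 locus, mutant replicate 2 had an unnamed locus (mm9 chromosome 5, 38868070 to 38868486) at 5.66 FPKM, and no unnamed locus overlapped it in the control libraries. Beyond the 5′ end of Slco4c1, mutant replicate 1 had an unnamed locus (chromosome 1, 98775253 to 98775618) at 8.66 FPKM, against at most 4.28 FPKM for overlapping control loci. Mutant replicate 2 had another (98776064 to 98776512) at 5.88 FPKM, which no control locus overlapped. Unnamed loci without an overlapping mutant counterpart were present too: a pair inside Slc47a1 in control replicate 2 at 9.58 and 14.04 FPKM, and 1 within 50 kb of Slc22a12 in control replicate 1 at 6.02 FPKM. Such short loci were assembled in each library separately, and the cause of these differences was not tested.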

How the results depend on the processing

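With limma at an adjusted p under 0.05, 0 members passed in any of the 15 settings run for the 9 tested members. The number lower at an unadjusted p under 0.05 was 5, and 6 without the trend. It ranged from 4 to 6 with a library left out; Slc17a1 missed it without control replicate 1, and Slc17a4 reached it without mutant replicate 2. In these fits an arm has a single library, which is assumed to vary like the other group, and the share of all genes lower at that threshold ran from 3.10% to 8.40%, so the counts say little on stability. The median log2 change stayed between -0.80 (pseudocount of 0.1 FPKM) and -0.55 (without control replicate 2). The log2 change of Slco4c1, 0.28 over all libraries, ran from -0.12 without mutant replicate 2 to 0.69 without mutant replicate 1; the cause was not tested. Groups did not overlap in 7 of the members, against 8, when libraries were scaled to the same FPKM sum. Under that scaling an unadjusted p under 0.05 was reached by 550 genes with higher and 507 with lower levels, against 355 and 607.

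Over all genes, 6 were higher and 15 lower in mutant kidneys. The count of lower genes was 6 with no filter, 23 with library medians set equal and 7 without the trend; the cause was not tested. Leaving out each library gave 0 to 4 higher and 0 to 17 lower. Both counts were 0 without control replicate 1 (where an unadjusted p under 0.05 was reached by 293 higher and 721 lower genes) and without control replicate 2 (1192 and 1103); 1 gene was higher without mutant replicate 2. With the replicate number as a block, 3 were higher and 3 lower, and 5 members were at an unadjusted p under 0.05. Deviations of same-numbered libraries correlated at r = 0.15 across genes, with only 2 pairs, so the numbers are not taken to pair the libraries. In both groups replicate 1 expressed Ddx3y and replicate 2 Xist, so the block also separates the sexes, and leaving out a library makes the sexes unequal between groups. Without read totals, the precision of low values such as those of Slc17a2 is limited and not known.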

Other observations

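The ratio of Slc17a1 to Slc17a3 in FPKM was 3.32 and 3.04 in mutant libraries, against 2.32 and 2.63 in control libraries, without overlap; it was computed after the values of both genes were seen. That of Slc47a1 to Slc22a12 was 1.49 and 1.76 in mutant libraries, against 1.01 and 1.48 in control libraries. Within 50 kb of the Slc17 genes, Trim38 was listed at 0 in every library and the histone gene Hist1h2ba was at 2.32 and 1.95 FPKM in mutant libraries, against 2.82 and 2.78 FPKM in control libraries. Wdr1, next to Slc2a9, was at 70.7 and 63.1 FPKM in mutant libraries, against 70.2 and 69.7 FPKM in control libraries. No named locus overlapped that of a member (0 of 10).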
